A study of Saccharomyces cerevisiae with 21 samples.

Results

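The PAU, DAN, TIR, COS, AAD and FLO genes are multigene families of budding yeast that share close copies and lie largely near chromosome ends. Members were taken by symbol, as a family name followed by a number, from the genes that the array annotation pairs with the probe sets, and genes of chromosome II were not used here. This gave 34 genes on 40 probe sets, of 5449 genes tested and 10928 probe sets on the array. They are 11 PAU, 2 DAN, 4 TIR, 7 COS, 5 AAD and 5 FLO genes. Another 16 genes with such names are in the gene table of this genome but were not measured here under a symbol of their own, and 11 of these are PAU genes. A probe set whose name ends in _x_at or _s_at can bind transcripts of close copies. Of the 40 probe sets 10 end in _x_at and 7 in _s_at, and 8 of the 11 PAU genes were measured only by such probe sets, so their signal cannot be assigned to 1 copy.

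The name subtelomeric did not hold for every member. By gene order, 20 of the 34 lie among the 10 genes nearest a chromosome end, including all 7 COS genes, 6 of the PAU genes, 4 of the AAD genes (all but AAD6) and FLO1, FLO9 and FLO10. The other 14 lie farther in, and they include both DAN genes, all 4 TIR genes, PAU2, PAU5, PAU7, PAU17, PAU23, FLO8 and FLO11. DAN4 and AAD6 (11 genes from an end) and DAN1 (12 genes) are just past that limit, while the TIR genes lie 57 to 178 genes in. FLO8 and AAD6 are listed as pseudogenes in the reference strain.

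Genes near yeast chromosome ends are kept low by silencing proteins that spread inward from telomere repeats. Seripauperins (PAU) and the related DAN and TIR genes encode small or mannose-rich cell wall proteins. Many of them are repressed in aerated cells through heme and the repressors Rox1 and Mot3, and the activator Upc2 turns on the DAN and TIR genes when oxygen or sterols run low. COS genes encode membrane proteins that help to sort cell surface proteins into endosomes. AAD genes encode putative aryl-alcohol dehydrogenases, and FLO genes encode cell surface adhesins, apart from FLO8, which encodes an activator of other FLO genes.

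The members were followed in mutants of the Mediator tail, the module of the RNA polymerase II coactivator Mediator that many activators contact. The gal11Δ med3Δ strain is labelled MATα, with med3Δ::kanMX4, med15Δ::kanMX4 and the markers his3Δ1, leu2Δ0, met15Δ0 and ura3Δ0. It lacks Gal11, also called Med15, and Med3, encoded by PGD1. The gal11-myc med3Δ strain is labelled MATa, with his3Δ1, leu2Δ0 and ura3Δ0. It carries med3Δ::URA3 and GAL11-13MYC::HIS3MX, and its SRB4 gene is deleted (srb4Δ::kanMX) and supplied by the plasmid RY2844 (CEN LEU2 SRB4). The wild type is labelled MATa, with his3Δ1, leu2Δ0, met15Δ0 and ura3Δ0, and the authors' deposited table calls it BY4741. Each was grown to mid-log phase at 30 °C in complete synthetic medium (CSM) and in rich medium (YPD), with 3 arrays per strain and medium. A further 3 arrays, in YPD, hold a wild type labelled BY4742, MATa, with lys2Δ0 and without met15Δ0, although BY4742 is by its usual description a MATα strain. Each mutant strain differs from wild type in more than the tail genes, so that the effects of tail loss and of the rest of the genotype cannot be told apart. The labels do not say that replicates are separate cultures, so a p-value measures the spread between these arrays, which may be technical.

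Values are log2 signals centred on 0 at each probe set's median over the 9 arrays of a medium. A value therefore has no level, and only differences within a medium can be read. Their precision is limited by the number of arrays, 3 per group. Differences were tested with limma over all 5449 genes, and "rose" and "fell" refer to a Benjamini-Hochberg adjusted p under 0.05. GAL11 and PGD1 followed the labels, while MET17 did not. GAL11 fell in gal11Δ med3Δ, with log2 differences of -5.62 in CSM and -6.43 in YPD, and so did PGD1 (-4.26 and -4.51). In gal11-myc med3Δ PGD1 fell (-4.05 in CSM and -4.30 in YPD), and tagged GAL11 differed by -0.55 and -0.59. MFA2, which encodes a mating pheromone made by MATa cells, fell in gal11Δ med3Δ (-7.87 in CSM and -7.65 in YPD). MET17, also called MET15, is labelled deleted in wild type, and the label of gal11-myc med3Δ does not list that deletion. Its difference between them was 0.04 in CSM and 0.08 in YPD (adjusted p 0.851 and 0.68), which goes against the listed markers. The arrays of gal11Δ med3Δ in CSM spread most, with a median gene SD of 0.141 against 0.0463 to 0.137 in the other groups, and replicate 1 of that group stood apart for several members.

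More members rose than fell in both mutants. RNA came from whole cultures, so more cells with a transcript and more of it per cell cannot be told apart. Of the 34 members, 11 were measured only by _x_at or _s_at probe sets, so a shared signal may be counted more than once. In CSM, 25 of 34 members rose and 0 fell in gal11Δ med3Δ (27.1% and 18.4% of all genes), and no member passed an unadjusted p under 0.05 in the lower direction in limma. In gal11-myc med3Δ in CSM, 18 rose and 1 fell (22.4% and 14.2% of all genes). In YPD the counts were smaller, with 14 up and 3 down in gal11Δ med3Δ (27.5% and 19.4% of all genes) and 10 up and 2 down in gal11-myc med3Δ (21.2% and 12.1% of all genes). The YPD share of members that rose in gal11-myc med3Δ, 29.4%, was near that of all genes. The median difference over the 34 members was 0.51 in gal11Δ med3Δ and 0.38 in gal11-myc med3Δ in CSM, where all genes had medians of 0.04 and 0.06. It was 0.23 and 0.10 in YPD, where all genes had 0.03 in each.

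Most changes were small. At 2-fold or more, 6 members rose in gal11Δ med3Δ in CSM (5.07% of all genes), 5 in gal11-myc med3Δ in CSM (2.95%), 4 in gal11Δ med3Δ in YPD (4.66%) and 2 in gal11-myc med3Δ in YPD (2.57%). The only falls of that size in these comparisons were those of TIR3 in YPD, in both mutants (2.81% of all genes in gal11Δ med3Δ and 1.76% in gal11-myc med3Δ), with 0 in CSM in limma (4.22% of all genes in gal11Δ med3Δ and 3.27% in gal11-myc med3Δ) and 0 and 2 members lower there at an unadjusted p under 0.05 at any size. Without replicate 1 of gal11Δ med3Δ in CSM, 19 members passed in that comparison, and AAD14, FLO11, PAU14, PAU18, TIR2 and TIR3 no longer did.

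**Figure D1:**
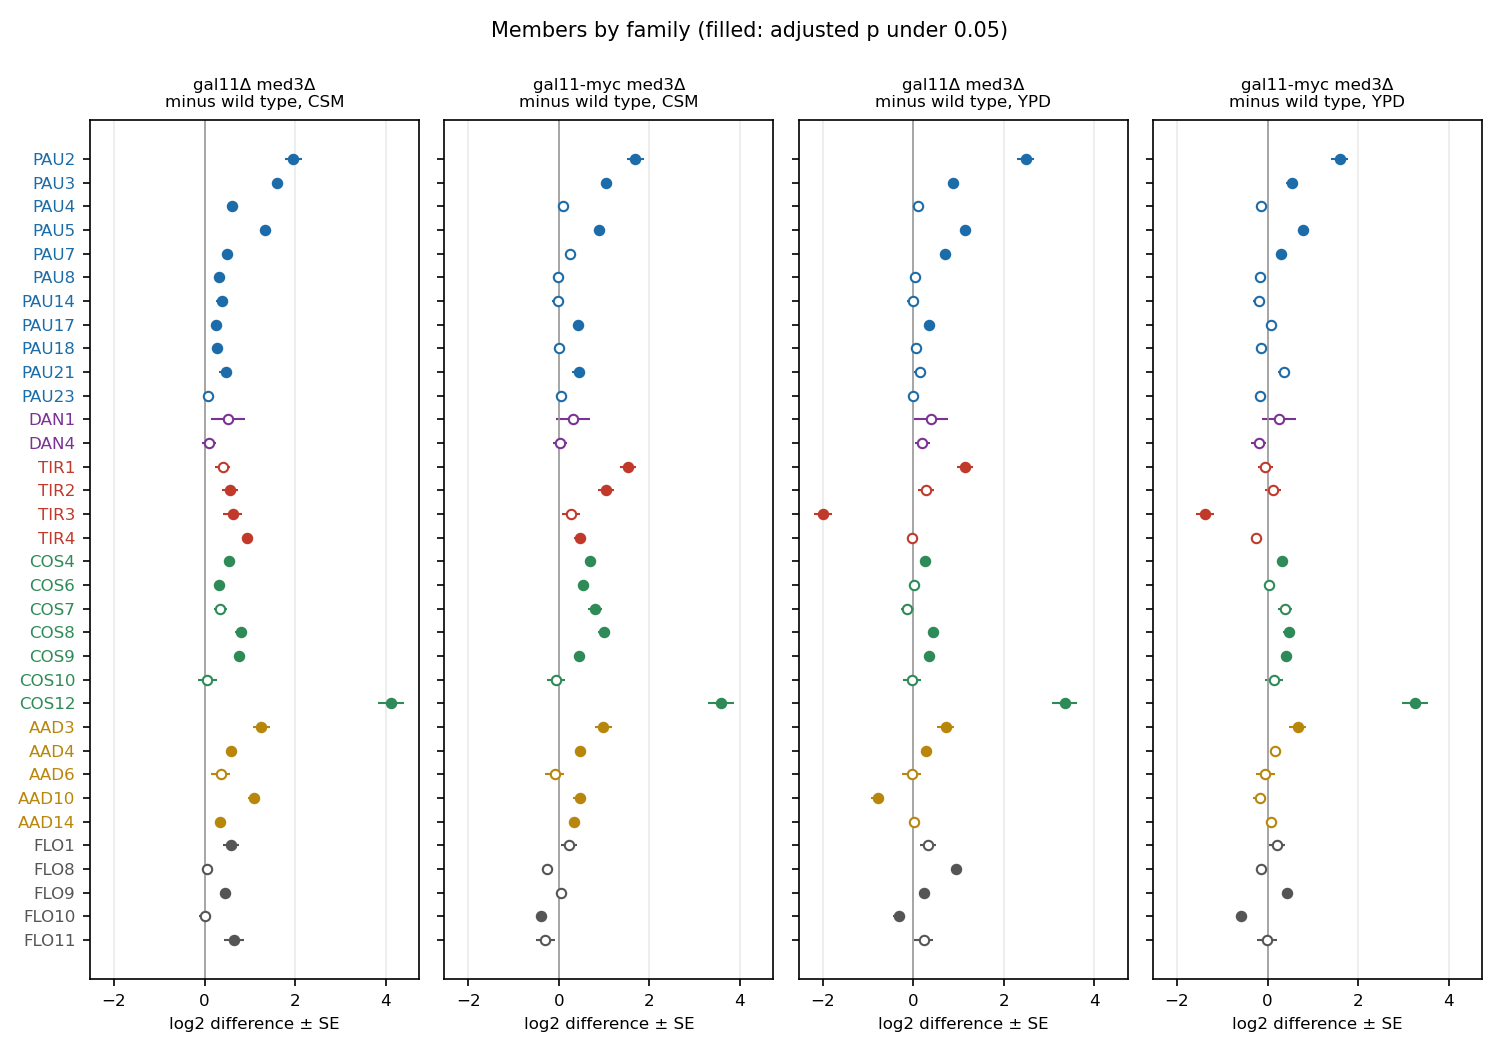
Log2 difference from wild type with its standard error (x axis) of all 34 members, in colours by family (y axis), for gal11Δ med3Δ and gal11-myc med3Δ in CSM and then in YPD; filled points have an adjusted p under 0.05. COS12 and PAU2 lie far to the right in all 4 panels, and TIR3 lies to the left in YPD alone.

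Among other genes near chromosome ends the share that rose was also above that of all genes. Among 187 genes within the 10 nearest each end, with members and chromosome II left out, 49.7% rose and 6.95% fell in gal11Δ med3Δ in CSM. In gal11-myc med3Δ in CSM 44.4% rose and 5.35% fell. In YPD 39.6% rose and 12.8% fell in gal11Δ med3Δ, and 38.5% rose and 8.56% fell in gal11-myc med3Δ. The member shares that rose, 73.5% and 52.9% in CSM and 41.2% and 29.4% in YPD in the same order of mutants, lay above those of these neighbours in CSM and close to or below them in YPD. The difference between the 2 sets of genes was not tested.

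**Figure D2:**
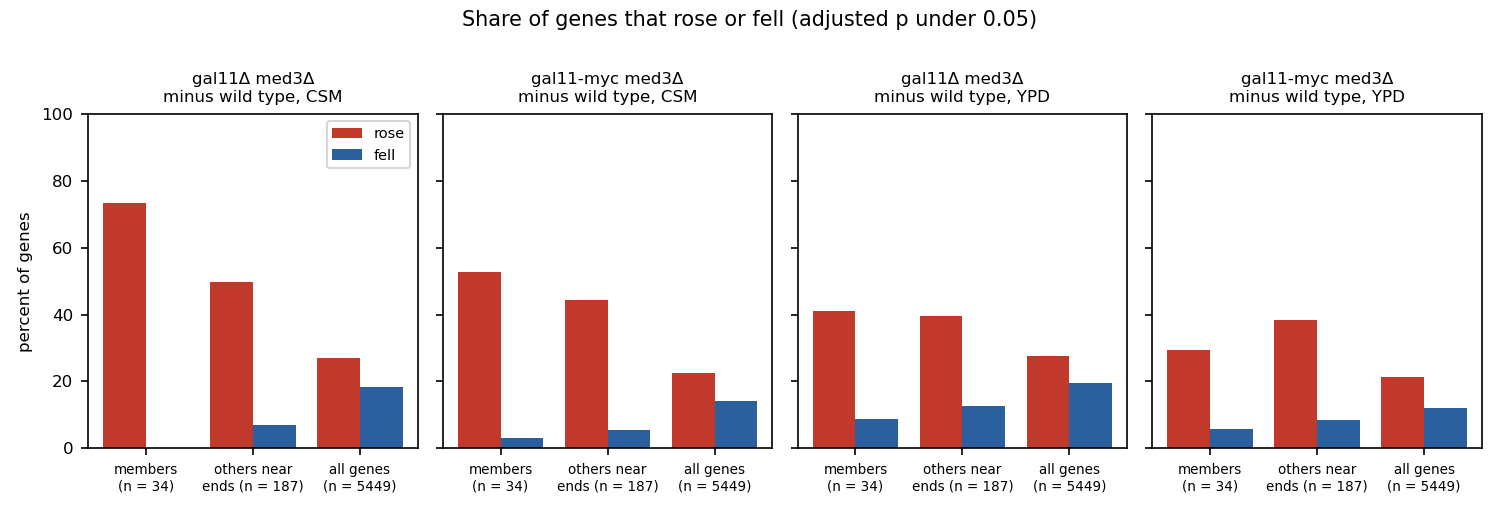
Percent of genes that rose (red) or fell (blue) at an adjusted p under 0.05 (y axis), among the 34 members, 187 other genes near chromosome ends and all 5449 genes, for each mutant in CSM and in YPD. In CSM the red bar of the members is the highest of the 3, at 73.5% in gal11Δ med3Δ and 52.9% in gal11-myc med3Δ.

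Seripauperin genes differed in how far they moved. PAU2, PAU3 and PAU5 rose in both mutants and both media, PAU4, PAU8, PAU14 and PAU18 rose in gal11Δ med3Δ in CSM alone, and PAU7, PAU17, PAU21 and PAU23 showed neither pattern. Of 11 PAU genes, 10 rose in gal11Δ med3Δ in CSM (27.1% of all genes), 5 in gal11-myc med3Δ in CSM (22.4%), 5 in gal11Δ med3Δ in YPD (27.5%) and 4 in gal11-myc med3Δ in YPD (21.2%). None fell as a gene mean, where 18.4%, 14.2%, 19.4% and 12.1% of all genes fell in the same order. No PAU gene passed an unadjusted p under 0.05 in the lower direction in limma. Since 8 of the 11 were measured only by _x_at or _s_at probe sets, these counts may hold a shared signal more than once. PAU2, measured only by an _x_at probe set, moved most, and its signal may include that of close copies. Its values in CSM were 0.75, 0.01 and 0.18 in gal11Δ med3Δ, 0.13, 0.00 and 0.00 in gal11-myc med3Δ and -1.72, -1.19 and -2.03 in wild type. In YPD they were 0.89, 0.81 and 1.0 in gal11Δ med3Δ, 0.00, 0.11 and -0.08 in gal11-myc med3Δ and -1.60, -1.31 and -1.83 in wild type. Every mutant array lay above every wild type array in both media. The difference was 1.96 ± 0.19 (SE) in gal11Δ med3Δ and 1.69 ± 0.19 in gal11-myc med3Δ in CSM, with adjusted p values of 2.75e-07 and 2.44e-06. In YPD it was 2.48 ± 0.19 and 1.59 ± 0.19 (adjusted p 2.47e-08 and 8.52e-06), which is 5.6-fold and 3.02-fold.

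PAU5 and PAU3, the latter measured only by an _s_at probe set, followed. PAU5 had CSM values of 0.80, 0.29 and 0.27 in gal11Δ med3Δ, -0.05, -0.05 and 0.09 in gal11-myc med3Δ and -0.93, -0.94 and -0.81 in wild type. Its YPD values were 0.32, 0.40 and 0.38 in gal11Δ med3Δ, -0.04, -0.05 and 0.07 in gal11-myc med3Δ and -0.76, -0.82 and -0.76 in wild type. The 3 strains did not overlap in either medium, with gal11Δ med3Δ highest and wild type lowest. PAU5 rose by 1.35 ± 0.11 and 0.89 ± 0.11 in CSM and by 1.15 ± 0.11 and 0.78 ± 0.11 in YPD, with gal11Δ med3Δ first in each pair (adjusted p at most 3.65e-05). PAU3, which lies 5 genes from an end, had CSM values of 0.72, 0.52 and 0.27 in gal11Δ med3Δ, 0.02, -0.18 and 0.00 in gal11-myc med3Δ and -1.05, -1.11 and -1.16 in wild type. In YPD its values were 0.62, 0.21 and 0.33 in gal11Δ med3Δ, 0.12, 0.00 and 0.00 in gal11-myc med3Δ and -0.41, -0.42 and -0.65 in wild type. The strains again kept the same order without overlap. PAU3 rose by 1.61 ± 0.12 and 1.05 ± 0.12 in CSM (adjusted p 9.86e-09 and 2.49e-06), and by 0.88 ± 0.12 and 0.54 ± 0.12 in YPD (1.50e-05 and 0.00242).

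PAU7 (_x_at) rose in gal11Δ med3Δ in both media, by 0.50 ± 0.11 in CSM and 0.71 ± 0.11 in YPD. In gal11-myc med3Δ it rose by 0.29 in YPD (adjusted p 0.0483, and up to 0.231 without any of 4 single arrays), and its CSM difference was 0.25 (adjusted p 0.0766). PAU17 rose by 0.25 and 0.43 in CSM and by 0.36 in gal11Δ med3Δ in YPD, against 0.09 in gal11-myc med3Δ in YPD, which did not pass. Its call in gal11Δ med3Δ in CSM ended without wild type replicate 3 (adjusted p 0.0516). PAU21 (_s_at) rose in CSM in both mutants, by 0.46 and 0.44, although its arrays overlapped between gal11Δ med3Δ and wild type. The first call ended without any of 3 single arrays (adjusted p up to 0.0729) and the second without any of 4 (up to 0.086). PAU21 had differences of 0.15 and 0.36 in YPD, and the second passed (adjusted p 0.0268) when same-numbered YPD arrays were kept together as a block.

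PAU4, PAU8, PAU14 and PAU18, all measured by _x_at probe sets and all within 5 genes of an end, rose in gal11Δ med3Δ in CSM alone. PAU4 had values of 0.57, 0.38 and 0.54 in gal11Δ med3Δ, 0.00, -0.09 and 0.00 in gal11-myc med3Δ and -0.04, -0.14 and -0.17 in wild type in CSM. All 3 gal11Δ med3Δ arrays were above the other 6. PAU4 rose by 0.61 ± 0.10 in gal11Δ med3Δ (adjusted p 8.51e-05), while gal11-myc med3Δ differed from wild type by 0.09 ± 0.10 (0.548). The rises of PAU8, PAU14 and PAU18 were 0.32, 0.39 and 0.28. PAU14 stood at 0.78 on replicate 1 of gal11Δ med3Δ against 0.13 and 0.22 on the other 2. Without that array the adjusted p was 0.106 for PAU14 and 0.0522 for PAU18. Without replicate 3 of gal11Δ med3Δ it was 0.121 for PAU8, and the calls of PAU8, PAU14 and PAU18 also ended without wild type replicate 2 (0.0773), 2 (0.0525) and 3 (0.0653). In YPD and in gal11-myc med3Δ the differences of these 4 genes ran from -0.19 to 0.10 and none passed.

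The 2 probe sets of PAU23 moved in opposite directions, so that its gene mean did not pass in any comparison. The _at probe set had CSM values of 0.42, -0.41 and -0.06 in gal11Δ med3Δ, 0.00, -0.03 and -0.04 in gal11-myc med3Δ and 0.36, 0.56 and 0.27 in wild type. In YPD its values were -0.22, -0.08 and 0.05 in gal11Δ med3Δ, -0.07, 0.00 and -0.10 in gal11-myc med3Δ and 0.66, 0.68 and 0.66 in wild type. Every mutant array lay below every wild type array in YPD, while 1 gal11Δ med3Δ array lay within the wild type range in CSM. This probe set fell in all 4 comparisons, with differences of -0.41 in gal11Δ med3Δ and -0.42 in gal11-myc med3Δ in CSM, and -0.75 and -0.72 in YPD. The _x_at probe set rose by 0.58 and 0.53 in CSM and by 0.76 and 0.40 in YPD. PAU5 and PAU17 also have an _at and an _x_at probe set each, and in both genes these differed from wild type in the same direction. The difference of the PAU5 _at probe set was 1.41 and that of its _x_at probe set 1.29 in gal11Δ med3Δ in CSM. For PAU17 these were 0.16, which did not pass (adjusted p 0.196 over all probe sets), and 0.35.

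**Figure D3:**
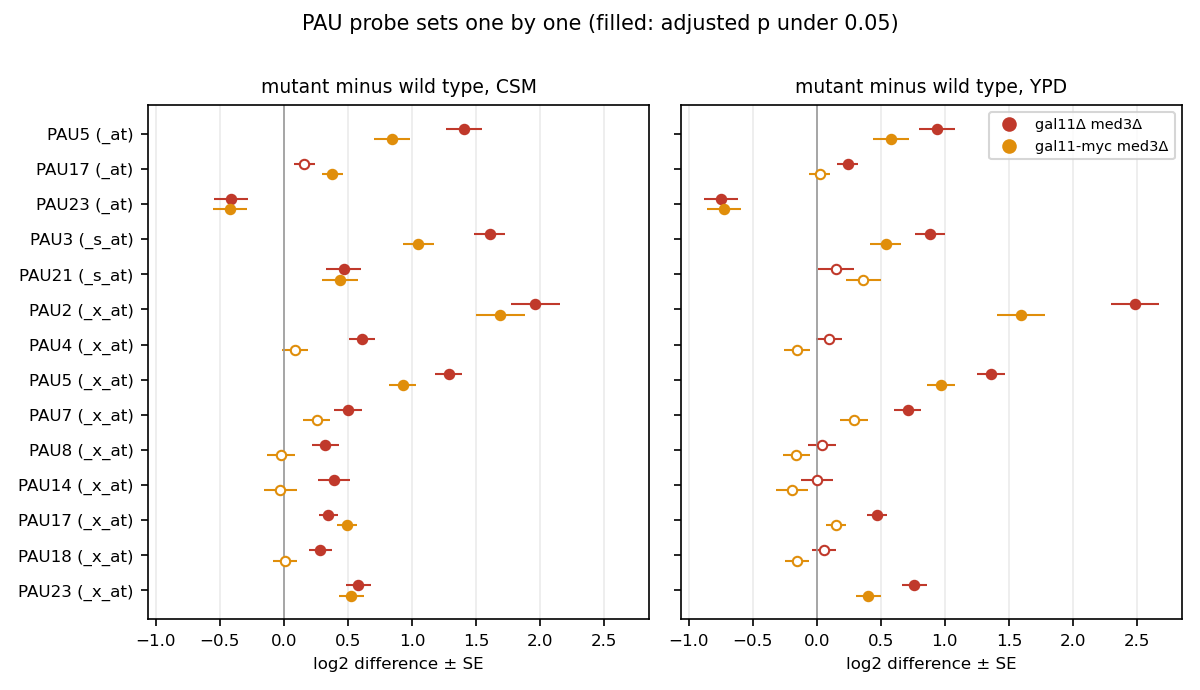
Log2 difference from wild type with its standard error (x axis) for the 14 PAU probe sets (y axis, grouped by suffix) in CSM and YPD, with gal11Δ med3Δ in red and gal11-myc med3Δ in orange; filled points have an adjusted p under 0.05 over all probe sets, under which PAU7 in gal11-myc med3Δ in YPD does not pass. The PAU23 _at probe set lies left of 0 and its _x_at probe set right of 0 in both media.

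DAN1 and DAN4, cell wall mannoprotein genes of cells without oxygen, did not pass in any of the 4 comparisons, nor at an unadjusted p under 0.05 in limma. DAN1 values in YPD were -0.32, -0.02 and 1.26 in gal11Δ med3Δ, 0.00, 0.12 and 0.41 in gal11-myc med3Δ and 0.00, -0.23 and -0.02 in wild type, and 1 array of gal11Δ med3Δ stood above all others. In CSM the DAN1 values of gal11Δ med3Δ (0.28, 0.33 and 0.14) all lay above those of wild type (-0.45, -0.15 and -0.19). DAN1 differences ran from 0.26 to 0.51 with an SE of 0.38, and those of DAN4 from -0.19 to 0.20 with an SE of 0.16. The SE is pooled over all 7 groups, and the SD of DAN1 in gal11Δ med3Δ was 0.84 in YPD against 0.10 in CSM.

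The TIR genes, which encode cell wall mannoproteins of cold-grown and anaerobic cells, differed by gene, strain and medium. TIR3 was lower in YPD and higher in CSM. Its YPD values were -0.79, -0.68 and -0.31 in gal11Δ med3Δ, 0.00, 0.50 and -0.44 in gal11-myc med3Δ and 1.31, 1.42 and 1.47 in wild type, so that both mutants lay below wild type. It fell by 2.0 (SE 0.21, adjusted p 7.15e-07) in gal11Δ med3Δ and by 1.38 (adjusted p 6.93e-05) in gal11-myc med3Δ. In CSM its values were 0.89, 0.07 and 0.09 in gal11Δ med3Δ, 0.00, -0.02 and 0.00 in gal11-myc med3Δ and -0.29, -0.31 and -0.22 in wild type. All mutant arrays lay above wild type there, with replicate 1 of gal11Δ med3Δ the highest. TIR3 rose by 0.62 ± 0.21 in gal11Δ med3Δ (adjusted p 0.0199, and up to 0.124 without any of 3 single arrays) and differed by 0.27 ± 0.21 in gal11-myc med3Δ (0.341).

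TIR1 rose in 1 mutant in each medium. In CSM its values were 0.21, -0.13 and 0.00 in gal11Δ med3Δ, 1.17, 1.07 and 1.21 in gal11-myc med3Δ and -0.49, -0.28 and -0.36 in wild type, and gal11-myc med3Δ lay far above both other strains. It rose by 1.53 ± 0.17 in gal11-myc med3Δ (adjusted p 1.67e-06) and differed by 0.40 ± 0.17 in gal11Δ med3Δ (0.0599). In YPD its values were 0.76, 0.95 and 1.08 in gal11Δ med3Δ, 0.00, 0.00 and -0.79 in gal11-myc med3Δ and -0.20, -0.02 and -0.43 in wild type, and gal11Δ med3Δ lay above both other strains. It rose by 1.14 ± 0.17 in gal11Δ med3Δ (adjusted p 3.32e-05) and differed by -0.05 ± 0.17 in gal11-myc med3Δ (0.855).

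TIR2 and TIR4 passed in CSM and not in YPD. TIR4 values in CSM were 0.71, 0.40 and 0.28 in gal11Δ med3Δ, 0.07, -0.10 and 0.00 in gal11-myc med3Δ and -0.47, -0.67 and -0.28 in wild type, with no overlap between the 3 strains. TIR4 rose by 0.94 ± 0.12 and 0.46 ± 0.12 (adjusted p 4.69e-06 and 0.00494). TIR2 values in CSM were 0.48, -0.10 and 0.00 in gal11Δ med3Δ, 0.72, 0.48 and 0.63 in gal11-myc med3Δ and -0.44, -0.29 and -0.57 in wild type, and all mutant arrays lay above wild type. It rose by 0.56 ± 0.17 and 1.04 ± 0.17 (adjusted p 0.0136 and 0.000127), and the first call ended without replicate 1 of gal11Δ med3Δ (0.0788) and without wild type replicate 3 (0.0575). In YPD the differences of TIR2 and TIR4 ran from -0.25 to 0.29.

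**Figure D4:**
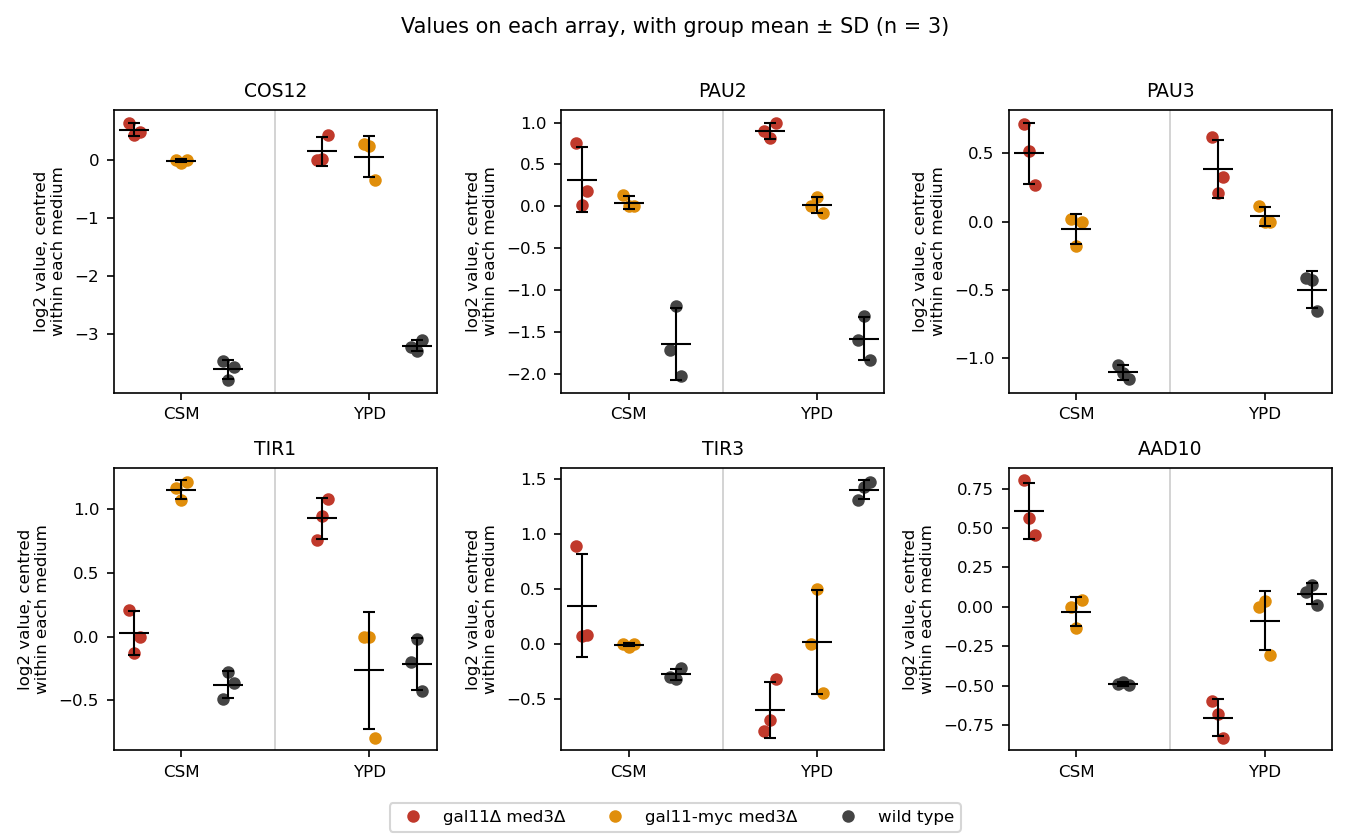
Centred log2 value on every array (y axis, a scale of its own for each gene) for 6 members, in CSM and then in YPD, with gal11Δ med3Δ in red, gal11-myc med3Δ in orange and wild type in grey; bars are the group mean ± SD of 3 arrays. COS12 and PAU2 are lowest in wild type in both media, and wild type is highest for TIR3 in YPD.

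COS12 had the largest difference of all 34 members in each comparison with wild type. COS12 values in CSM were 0.65, 0.44 and 0.49 in gal11Δ med3Δ, 0.00, -0.04 and 0.01 in gal11-myc med3Δ and -3.46, -3.78 and -3.56 in wild type. In YPD they were 0.00, 0.01 and 0.44 in gal11Δ med3Δ, 0.29, 0.25 and -0.34 in gal11-myc med3Δ and -3.21, -3.28 and -3.09 in wild type. The mutants overlapped each other in YPD, and wild type lay more than 2 log2 units below every mutant array in both media. COS12 rose by 4.12 ± 0.29 and 3.59 ± 0.29 in CSM (adjusted p 3.73e-09 and 4.89e-08), or 17.4-fold and 12-fold. In YPD it rose by 3.35 ± 0.29 and 3.26 ± 0.29 (adjusted p 7.57e-08 and 2.98e-07), or 10.2-fold and 9.57-fold. COS12 was measured by an _at probe set, and it is the gene nearest to its chromosome end.

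The authors' deposited table also lists COS12 with a fold of 3.36 between BY4741 and BY4742 in YPD (corrected p 0.503 in that table). That table gives no direction in words. In the authors' deposited table MET17 has a fold of 440 and MFA2 one of -164. The MET17 sign is that of BY4742 over BY4741 by the labelled met15Δ0, which would put COS12 higher in BY4742. With that direction MFA2 is lower in BY4742, which goes against its MATa label, though it matches the usual description of BY4742 as MATα. Given that label, the direction for COS12 was not treated as settled. The other 39 member probe sets had folds of at most 1.74 in size in the authors' deposited table. There, 0 of 40 had a corrected p under 0.05, and 1 of 40, that of COS12, passed 2-fold, as did 1.38% of the 9797 listed probe sets. The part of strain background in the difference of COS12 was not tested.

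The other COS genes moved less. In CSM 5 of 7 COS genes rose in gal11Δ med3Δ and 6 of 7 in gal11-myc med3Δ, and in YPD 4 of 7 rose in each, with 0 that fell in any of these comparisons and 0 lower at an unadjusted p under 0.05 in limma. Over all genes, 27.1% and 22.4% rose in CSM and 27.5% and 21.2% in YPD, in the same order of mutants. The shares that fell were 18.4% and 14.2% in CSM and 19.4% and 12.1% in YPD. COS8 values in CSM were -0.02, 0.00 and 0.06 in gal11Δ med3Δ, 0.25, 0.15 and 0.18 in gal11-myc med3Δ and -0.74, -0.82 and -0.82 in wild type. In YPD they were 0.05, 0.05 and -0.07 in gal11Δ med3Δ, 0.06, 0.06 and 0.00 in gal11-myc med3Δ and -0.51, -0.45 and -0.37 in wild type. Both mutants lay clear of wild type in each medium. COS8 rose by 0.81 ± 0.13 and 0.99 ± 0.13 in CSM and by 0.45 ± 0.13 and 0.48 ± 0.13 in YPD (adjusted p at most 0.00919).

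COS9 had CSM values of 0.41, 0.29 and 0.24 in gal11Δ med3Δ, 0.05, 0.00 and -0.05 in gal11-myc med3Δ and -0.39, -0.49 and -0.43 in wild type. The 3 strains did not overlap, and COS9 rose by 0.75 and 0.44 in CSM and by 0.35 and 0.40 in YPD. COS4, measured only by an _s_at probe set, rose by 0.53 and 0.70 in CSM and by 0.25 and 0.32 in YPD. The YPD call of COS4 in gal11Δ med3Δ ended without any of 4 arrays (adjusted p up to 0.0829). COS6 rose in CSM by 0.33 and 0.54, and its YPD differences were 0.02 and 0.03.

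COS7, the gene nearest to its end, was measured only by an _s_at probe set. It rose in gal11-myc med3Δ in CSM, by 0.80 ± 0.15 (adjusted p 0.000345). Its values there were 0.60, 0.52 and 0.42 in gal11-myc med3Δ and -0.38, -0.28 and -0.20 in wild type, which did not overlap. Its difference in gal11-myc med3Δ in YPD was 0.39 (adjusted p 0.0529, and 0.0457 with same-numbered arrays as a block). In gal11Δ med3Δ the differences were 0.35 in CSM and -0.13 in YPD, and neither passed. COS10 did not pass in any comparison, with differences from -0.07 to 0.14 and an SE of 0.21.

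Among the AAD genes, AAD3 rose in both mutants and media and AAD10 changed sign between media in gal11Δ med3Δ. In CSM 4 of 5 AAD genes rose in each mutant and 0 fell, with 0 lower at an unadjusted p under 0.05 in limma. Over all genes, 27.1% and 22.4% rose in CSM and 18.4% and 14.2% fell, with gal11Δ med3Δ first. In YPD 2 AAD genes rose and 1 fell in gal11Δ med3Δ (27.5% and 19.4% of all genes), and 1 rose in gal11-myc med3Δ, where 21.2% of all genes rose. AAD3 values in CSM were -0.23, 0.72 and 0.55 in gal11Δ med3Δ, 0.01, 0.07 and 0.12 in gal11-myc med3Δ and -0.89, -1.02 and -0.82 in wild type. All mutant arrays lay above wild type, and replicate 1 of gal11Δ med3Δ was the lowest of the mutant arrays. AAD3 rose by 1.26 ± 0.18 and 0.98 ± 0.18 in CSM and by 0.72 ± 0.18 and 0.66 ± 0.18 in YPD, and the last call ended without wild type replicate 2 (adjusted p 0.0677). Its 3 probe sets, 1 each of _at, _s_at and _x_at, were all higher in each of the 4 comparisons.

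AAD10 values in CSM were 0.80, 0.56 and 0.46 in gal11Δ med3Δ, 0.00, -0.13 and 0.04 in gal11-myc med3Δ and -0.49, -0.47 and -0.50 in wild type. The 3 strains did not overlap, with gal11Δ med3Δ highest. In YPD its values were -0.60, -0.68 and -0.83 in gal11Δ med3Δ, 0.00, 0.04 and -0.30 in gal11-myc med3Δ and 0.10, 0.14 and 0.01 in wild type, and gal11Δ med3Δ was lowest. AAD10 rose in CSM by 1.09 ± 0.14 in gal11Δ med3Δ and 0.46 ± 0.14 in gal11-myc med3Δ (adjusted p 5.35e-06 and 0.0157, the second 0.0586 without replicate 3 of gal11-myc med3Δ). In YPD it fell by 0.79 in gal11Δ med3Δ (adjusted p 0.000209) and differed by -0.17 in gal11-myc med3Δ (0.372).

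AAD4 and AAD14 rose in CSM. The AAD4 differences were 0.58 and 0.48 in CSM and 0.28 and 0.16 in YPD, and the first YPD value passed at 0.0453 and missed the threshold without any of 5 arrays (adjusted p up to 0.183). The 2 probe sets of AAD4 differed in YPD. The _at probe set had means of 0.23 in gal11Δ med3Δ, 0.06 in gal11-myc med3Δ and -0.34 in wild type. Those of the _s_at probe set were 0.02, -0.04 and 0.02. For AAD14 the CSM differences were 0.34 and 0.33, with calls that ended without any of 3 single arrays (adjusted p up to 0.121) and without any of 5 (up to 0.0923). AAD6 did not pass in any comparison, and stood at 1.08 on replicate 1 of gal11Δ med3Δ in CSM against 0.00 and 0.08 on the other 2.

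FLO genes did not move as 1 group. In gal11Δ med3Δ in CSM 3 of 5 rose and 0 fell (27.1% and 18.4% of all genes), with 0 lower at an unadjusted p under 0.05 in limma. In gal11-myc med3Δ in CSM 1 fell and 0 rose (14.2% and 22.4% of all genes), with 0 higher at an unadjusted p under 0.05. In YPD 2 rose and 1 fell in gal11Δ med3Δ, and 1 rose and 1 fell in gal11-myc med3Δ. With 5 genes, the YPD counts are near the shares of all genes that rose and fell (27.5% and 19.4% in gal11Δ med3Δ, 21.2% and 12.1% in gal11-myc med3Δ). FLO8 rose in gal11Δ med3Δ in YPD, where its values were 0.85, 0.68 and 1.20 in gal11Δ med3Δ, -0.21, -0.29 and 0.00 in gal11-myc med3Δ and -0.01, -0.12 and 0.05 in wild type, and the 3 arrays of gal11Δ med3Δ stood above the other 6. The difference was 0.94 ± 0.10 (adjusted p 1.33e-06), against -0.14 ± 0.10 in gal11-myc med3Δ (0.315). In CSM the FLO8 differences were 0.05 in gal11Δ med3Δ and -0.25 in gal11-myc med3Δ, and neither passed.

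FLO10, an adhesin gene near a chromosome end, was lower in gal11-myc med3Δ in both media. Its YPD values were -0.11, -0.10 and 0.11 in gal11Δ med3Δ, -0.46, -0.43 and 0.00 in gal11-myc med3Δ and 0.16, 0.27 and 0.42 in wild type, and both mutants lay below wild type. FLO10 fell in gal11-myc med3Δ, with differences of -0.39 in CSM and -0.58 in YPD, and the CSM call ended without any of 3 single arrays (adjusted p up to 0.0679). In gal11Δ med3Δ it fell by 0.32 in YPD, a call that ended without any of 4 single arrays (adjusted p up to 0.139), and its CSM difference was 0.01.

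FLO1, FLO9 (measured only by an _s_at probe set) and FLO11 rose in gal11Δ med3Δ in CSM. FLO9 rose by 0.45 ± 0.10 there, and in YPD by 0.24 in gal11Δ med3Δ (adjusted p 0.0499, up to 0.147 without 1 array) and 0.44 in gal11-myc med3Δ. FLO1, the flocculin of cell clumping, rose by 0.59 ± 0.18, a call that ended without replicate 3 of gal11Δ med3Δ (0.0548) and without wild type replicate 2 (0.0574). FLO11, the adhesin of invasive growth, had CSM values of 1.44, 0.30 and 0.22 in gal11Δ med3Δ, -0.28, -0.39 and -0.22 in gal11-myc med3Δ and -0.13, 0.00 and 0.12 in wild type. Replicate 1 of gal11Δ med3Δ was far above the other arrays. FLO11 rose by 0.66 ± 0.22 (adjusted p 0.02), and without that array the difference was 0.26 (adjusted p 0.0638). It also missed the threshold without wild type replicate 1 (0.0696).

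The mutants were also set against each other within each medium. In CSM, 13 members were higher and 3 lower in gal11Δ med3Δ than in gal11-myc med3Δ (10.3% and 7.65% of all genes). In YPD, 6 were higher and 2 lower (8.96% and 6.15% of all genes). The counts rested on single arrays in part. Without any 1 of the 3 gal11-myc med3Δ arrays the CSM count of 16 was 9. The YPD count of 8 was 4 without replicate 1 of gal11-myc med3Δ, 5 without replicate 2 of gal11-myc med3Δ and 5 without replicate 1 of gal11Δ med3Δ.

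TIR1 differed most between the mutants. It was lower in gal11Δ med3Δ in CSM, with a difference of -1.12 (SE 0.17, adjusted p 0.000172), and higher in YPD, by 1.19 ± 0.17 (6.85e-05). In CSM PAU3, PAU4 and PAU5 were higher in gal11Δ med3Δ by 0.56, 0.53 and 0.46, and PAU8, PAU14 and PAU18 by 0.35, 0.42 and 0.28. The last 3 calls each ended without any single gal11-myc med3Δ array, and without 1 or more single gal11Δ med3Δ arrays (adjusted p up to 0.151, 0.114 and 0.133). In YPD PAU2, PAU5, PAU7 and PAU17 were higher by 0.89, 0.37, 0.42 and 0.27. The calls of PAU5, PAU7 and PAU17 each ended without any of several single arrays (adjusted p up to 0.097, 0.0754 and 0.0805). With same-numbered arrays as a block, PAU3, DAN4 and FLO10 also passed in YPD (adjusted p 0.0353, 0.0374 and 0.0306).

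COS12 did not pass between the mutants, with differences of 0.54 ± 0.29 in CSM and 0.09 ± 0.29 in YPD. COS7 was lower in gal11Δ med3Δ in CSM (-0.45) and in YPD (-0.52), COS6 was lower in CSM (-0.21), and COS9 was higher in CSM by 0.31. The COS7 calls ended without any of 5 single arrays in CSM (adjusted p up to 0.171) and of 4 in YPD (up to 0.112). That of COS6 in CSM also ended without any of 5 single arrays (up to 0.156). AAD10 was higher in gal11Δ med3Δ in CSM by 0.64 and lower in YPD (-0.61). FLO8, FLO9, FLO10 and FLO11 were all higher in CSM, by 0.30, 0.40, 0.39 and 0.95. The CSM call of FLO8 ended without any single array of either mutant (adjusted p up to 0.147). That of FLO10 ended without any of 4 single arrays (up to 0.13). FLO8 was also higher in YPD, by 1.08, and TIR4 was higher in CSM by 0.47.

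The difference between media was tested for each mutant as its effect in CSM minus its effect in YPD. In gal11Δ med3Δ, 7 members were more positive in CSM and 2 more negative (15.1% and 16% of all genes), and the count of 9 was 14 without replicate 1 of gal11Δ med3Δ in CSM. In gal11-myc med3Δ, 7 were more positive and 0 more negative (5.51% and 8.17% of all genes; 1 was more negative at an unadjusted p under 0.05 in limma), with the count at 4 without wild type replicate 2 in YPD. All 4 TIR genes were more positive in CSM in gal11-myc med3Δ. TIR3 differed most, by 2.62 ± 0.29 in gal11Δ med3Δ and 1.65 ± 0.29 in gal11-myc med3Δ (adjusted p 4.31e-06 and 0.000754). TIR1 moved in opposite directions, by -0.74 ± 0.24 in gal11Δ med3Δ and 1.58 ± 0.24 in gal11-myc med3Δ. Its call in gal11Δ med3Δ ended without any of several single arrays (adjusted p up to 0.0623). AAD10 differed by 1.88 ± 0.20 and 0.63 ± 0.20. The second AAD10 call ended without any of several single arrays, from both strains and both media (adjusted p up to 0.111).

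**Figure D5:**
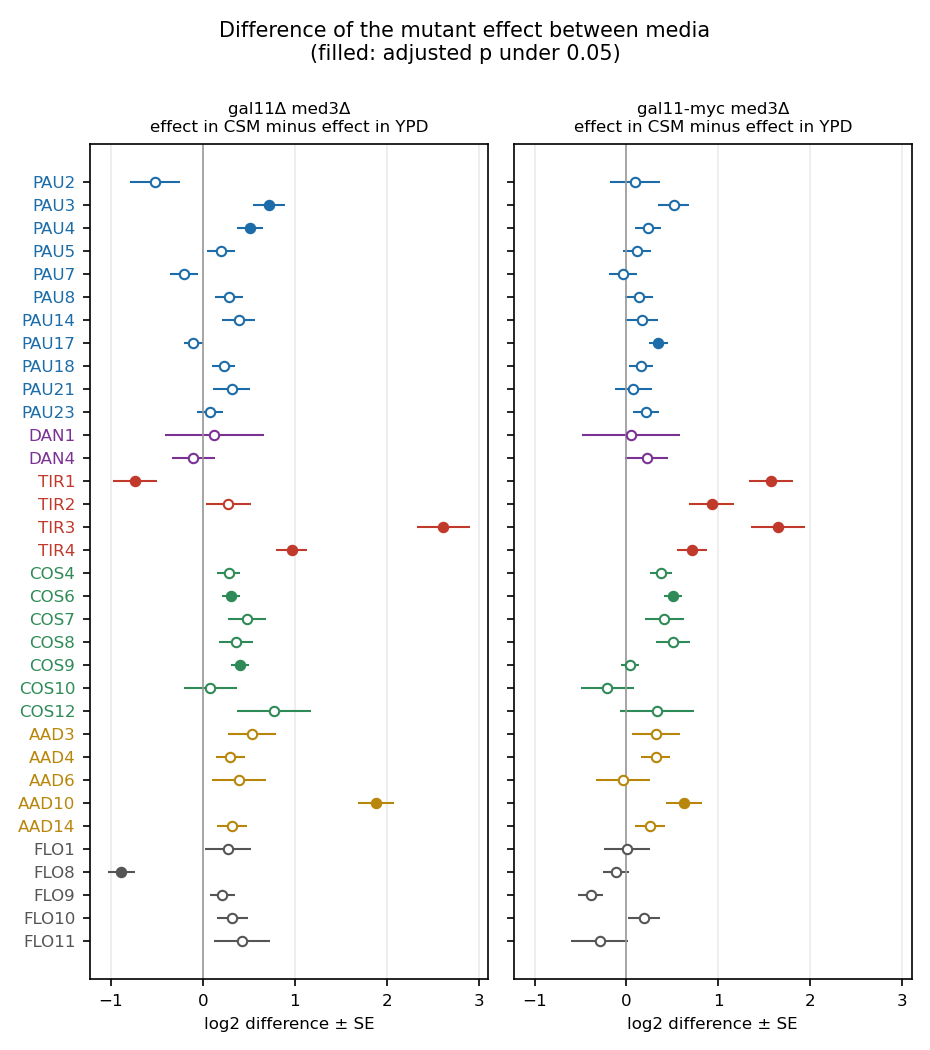
Effect of each mutant in CSM minus its effect in YPD, with its standard error (x axis, log2), for all 34 members (y axis); filled points have an adjusted p under 0.05. TIR3 and AAD10 lie farthest right in gal11Δ med3Δ, and the 4 TIR genes are all filled and right of 0 in gal11-myc med3Δ.

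Of 12 low-oxygen genes outside the families, 9 rose in gal11Δ med3Δ and 6 in gal11-myc med3Δ in CSM, and 7 and 6 in YPD. Of all genes, 27.1% and 22.4% rose in CSM and 27.5% and 21.2% in YPD, in the same order. In limma 0 fell in any of these, and 0 were lower at an unadjusted p under 0.05. ANB1, a translation factor isoform of cells without oxygen, rose by 3.98 and 3.73 in CSM and by 0.88 and 1.97 in YPD. ARE1, a sterol acyltransferase gene, rose by 1.18 and 1.22 in CSM and by 1.29 and 1.17 in YPD. ROX1, which encodes the heme-dependent repressor of such genes, fell in both mutants, with differences of -1.64 and -1.24 in CSM and -1.07 and -1.23 in YPD. Of 11 regulators of low-oxygen and sterol genes, 4 fell and 2 rose in each mutant in CSM, and in YPD 2 fell and 1 rose in gal11Δ med3Δ and 3 fell and 1 rose in gal11-myc med3Δ. Of all genes, 18.4% and 14.2% fell in CSM and 19.4% and 12.1% in YPD, with gal11Δ med3Δ first, so that the YPD count in gal11Δ med3Δ was near that share. The median over the 12 low-oxygen genes was 0.69 in gal11Δ med3Δ and 0.45 in gal11-myc med3Δ in CSM, and 0.47 and 0.56 in YPD.

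Of 25 genes for telomeric silencing, 5 rose and 6 fell in gal11Δ med3Δ in CSM, 4 and 3 in gal11-myc med3Δ in CSM, 1 and 8 in gal11Δ med3Δ in YPD, and 2 and 6 in gal11-myc med3Δ in YPD. In CSM these counts were near the shares of all genes (27.1% rose and 18.4% fell in gal11Δ med3Δ, 22.4% and 14.2% in gal11-myc med3Δ). The YPD shares over all genes were 27.5% up and 19.4% down in gal11Δ med3Δ, with 21.2% up and 12.1% down in gal11-myc med3Δ, and the difference of the list from all genes was not tested. The medians over the 25 were 0.00 and 0.06 in CSM and -0.08 and -0.04 in YPD. RAP1, which encodes the telomere repeat binding protein, fell in both mutants, with differences of -0.91 and -0.95 in CSM and -0.75 and -0.71 in YPD. SIR2, the gene of the silencing deacetylase, rose by 0.51 in gal11Δ med3Δ in CSM and fell in both mutants in YPD (-0.95 and -0.70). Of 22 measured genes of other families near chromosome ends, 9 rose in gal11Δ med3Δ and 11 in gal11-myc med3Δ in CSM, and 10 in each in YPD, where 1 fell in gal11Δ med3Δ. Among all genes, 27.1% and 22.4% rose in CSM and 27.5% and 21.2% in YPD, in the same order. The largest CSM rises were those of SEO1, a putative permease gene, at 3.46 and 2.38.

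Of 11 FLO gene regulators none rose in limma at an adjusted p under 0.05 (1 was higher in gal11Δ med3Δ in CSM, and 0 in the other comparisons, at an unadjusted p under 0.05), while 3 and 2 fell in CSM and 4 and 3 in YPD, with gal11Δ med3Δ first. Of all genes 18.4% and 14.2% fell in CSM and 19.4% and 12.1% in YPD, and the CSM count in gal11-myc med3Δ was near that share. MGA1, a regulator of filamentous growth, fell in both mutants, with differences of -3.67 and -2.79 in CSM and -2.51 and -2.64 in YPD, and so did PHD1 (-1.23, -1.02, -1.51 and -1.94 in the same order). Of 12 oxidant response genes, 4 rose and 3 fell in CSM in gal11Δ med3Δ, and 3 rose and 3 fell in CSM in gal11-myc med3Δ. In YPD 3 rose and 4 fell in gal11Δ med3Δ, while in gal11-myc med3Δ 2 rose and 2 fell. For 12 genes most of these counts are near the shares of all genes given for the silencing and telomere genes. The falls were above those shares for the 4 in gal11Δ med3Δ in YPD (against 19.4%) and the 3 in gal11-myc med3Δ in CSM (against 14.2%). These differences were not tested. Their medians were -0.04 and 0.00 in CSM and 0.14 and 0.03 in YPD. GRE2, an aldehyde reductase gene, fell in both mutants, with differences of -2.63 and -2.12 in CSM and -1.89 and -2.28 in YPD.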

How the data were processed

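Total RNA of 7 groups was hybridised to 21 Affymetrix arrays, grouped and numbered by sample title. Per the submitters' processing notes RMA was used (version not given in the sources used here), and per the file headers GeneSpring 11.5.1. The deposited log2 values are centred on each probe set's median over the 9 YPD, the 9 CSM or the 3 BY4742 arrays, so levels and differences between these sets are lost. CSM differences equal the log2 of the deposited fold changes within 0.001 for 100% of probe sets. The deposited fold changes are signed linear scores, not log2, per the file headers. The deposited p-values of that table come from a test that is not given in the sources used here.

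Of 10928 probe sets, 7244 had 1 gene symbol, 1 had several and 3683 had none; 5498 matched the R64 gene table, used for names and gene order. Probe sets of a gene were averaged, since centring leaves no level to choose by, giving 5449 genes. One limma 3.58.1 model (R 4.3.3) of 7 group means was fitted to all arrays, with 14 residual degrees of freedom and Benjamini-Hochberg adjustment over 5449 genes. BY4742 adds only to the estimate of the spread. The fit was tested on simulated data. Members, families and lists were chosen with earlier results of these data known. Any member could be named, and up to 6 PAU, 6 COS and 4 members of other families with the largest differences were described by array, with up to 4 called genes per other list. Same-numbered arrays deviated together in YPD (correlations across genes of 0.146 to 0.606 for 9 of 9 pairs). In CSM the correlations ran from -0.215 to 0.221, with 2 of 9 pairs over 0.1. The numbers were therefore taken to pair samples in YPD, while pairing in CSM was not clear. Alternatives were a replicate block, array weights, array centring, fits of fewer groups, unique probe sets and leaving out each array. Promoters and proteins were not analysed here.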

Additional observations from a re-analysis of the deposited data

Results flagged for a closer look

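These results had an effect that differed between the media by the limma test of the difference itself, CSM minus YPD. In gal11Δ med3Δ, TIR3 (2.62), AAD10 (1.88), TIR4 (0.97), PAU3 (0.72), PAU4 (0.51), COS9 (0.40) and COS6 (0.31) were more positive in CSM on the log2 scale. FLO8 (-0.89) and TIR1 (-0.74) were more negative in CSM. In gal11-myc med3Δ, TIR3 (1.65), TIR1 (1.58), TIR2 (0.93), TIR4 (0.71), AAD10 (0.63), COS6 (0.51) and PAU17 (0.35) were more positive in CSM. Of these 16 calls, those of COS6 and TIR1 in gal11Δ med3Δ and of AAD10, PAU17 and TIR2 in gal11-myc med3Δ were lost in at least 1 alternative.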

How the results depend on the processing

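Across all alternatives, 15 of 25 called members kept their call in gal11Δ med3Δ in CSM and 13 of 17 in YPD, and 14 of 19 in gal11-myc med3Δ in CSM and 10 of 12 in YPD. Leaving out each array in turn gave 19 to 23 members in gal11Δ med3Δ in CSM (25 with all arrays), 16 to 18 in gal11-myc med3Δ in CSM (19), 13 to 17 in gal11Δ med3Δ in YPD (17) and 10 to 13 in gal11-myc med3Δ in YPD (12). It gave 9 to 15 (16) between the mutants in CSM, 4 to 10 (8) in YPD, 7 to 14 (9) for the media in gal11Δ med3Δ and 4 to 8 (7) in gal11-myc med3Δ. Array weights, whose fit stopped before it converged, gave 26 members, 16 that rose and 10 that fell, in gal11-myc med3Δ in YPD (12 without weights, 10 and 2), 28 between the mutants in CSM, 19 higher and 9 lower (16, 13 and 3), 14 in YPD, 9 and 5 (8, 6 and 2), and 22 in each mutant for the media, 18 and 4 in gal11Δ med3Δ (9, 7 and 2) and 21 and 1 in gal11-myc med3Δ (7, 7 and 0). PAU23 turned with the _at probe set alone, to -0.41 in gal11Δ med3Δ and -0.42 in gal11-myc med3Δ in CSM and -0.75 in gal11Δ med3Δ in YPD. With array weights it turned to -0.14 in gal11Δ med3Δ and to -0.17 between the mutants in CSM, and AAD14 turned to -0.10 between the mutants in CSM; the cause was not tested.

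With the replicate block 25 and 20 members passed in gal11Δ med3Δ and gal11-myc med3Δ in CSM, 17 and 14 in YPD, 14 and 11 between the mutants in CSM and in YPD, and 10 and 9 for the media. Beyond the YPD calls given above, the block added FLO8 in gal11-myc med3Δ in CSM (adjusted p 0.00727), FLO10 in gal11Δ med3Δ (0.033) and FLO9 and PAU3 in gal11-myc med3Δ (0.0362 and 0.0305) for the media. It ended COS6 (0.0608) and PAU18 (0.0643) between the mutants in CSM, where pairing by number was not clear. It changed no other call of a member. A filter on dim probe sets could not be run, since centring removes levels, and signal over background is unknown.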
